A study of Mus musculus with 6 samples.

Results

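Granulosa cells of preovulatory mouse follicles were followed here over a single interval, the 1.5 h that separate 2.5 h from 4 h after an ovulatory dose of human chorionic gonadotropin (hCG). The comparison set the wild type array at 4 h against the wild type array at 2.5 h, which are 2 of the 6 arrays in the series, and took the log2 of the ratio of their intensities as the step of each gene. The 6 arrays held 1 sample for each genotype at hCG 0 h, 2.5 h and 4 h. Mice were 23 days old and had been primed with 5 IU of equine chorionic gonadotropin (eCG) for 48 h, and those at 2.5 h and 4 h had then received 5 IU of hCG. The groups used were wild type at 4 h, wild type at 2.5 h and, to place the step in the time course, wild type at 0 h. ERK1/2 conditional knockout cells at the same times served for comparison. The knockout mice lacked ERK1 and carried ERK2 fl/fl with Cyp19CRE, a Cre driven by the aromatase gene's promoter, which is active in granulosa cells of large follicles. The labels gave wild type mice none of these alleles, and they did not say how many animals each RNA came from.

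hCG acts on the receptor of luteinizing hormone and raises cyclic AMP in mural granulosa cells, which release EGF-like ligands that switch on ERK1 and ERK2 in granulosa and cumulus cells. A first wave of genes, many of them encoding transcription factors, responds within minutes to hours and is usually short-lived. Later genes prepare the cumulus matrix, follicle rupture and the change into luteal cells, while genes of the growing follicle are switched off.

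Between 2.5 h and 4 h, 403 of the 11443 genes bright enough to be compared differed by at least 2-fold, which is 3.52%. Higher at 4 h were 184 genes (1.61%), and lower at 4 h were 219 (1.91%). The cGMP-dependent protein kinase Prkg2, the vesicle fusion protein Snap25 and the chemokine receptor Cxcr4 were among the genes that went on rising. The first-wave genes Fos, Junb, Egr2, Nr4a1 and Nr4a2 were on their way down. The inhibin and activin subunit Inhbb, the FSH receptor Fshr and the estradiol-forming enzyme Hsd17b1 fell steeply. A difference of at least 4-fold was seen for 24 genes that were higher and 16 that were lower.

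With 1 array on each side there is no replicate error and no p-value, so "rose" and "fell" mean here a difference of at least 2-fold with an intensity of at least 64 on the brighter array. The median intensity was 54 or 55 on every array, a little under this floor, and a fold against a reading under it depends on the background. Each gene was read from the probe set that was brightest on average over the 6 arrays. The step had a median of 0 over all 11443 genes and a robust standard deviation of 0.30 on the log2 scale, and 5% of genes lay under -0.72 and 5% over 0.55. Between the same arrays, 18 probe sets of hybridization controls that were spiked in differed by -0.05 to 0.21, and 18 of poly(A) controls by -0.35 to 0.13. The 11 reference genes lay between -0.44 and 0.55. The 3 prime to 5 prime ratio, a sign of RNA integrity, was 4.79 at 0 h, 3.55 at 2.5 h and 4.01 at 4 h for Gapdh probe sets, and 3.18, 2.56 and 2.86 for Actb. The 0 h array, which enters the early difference, had the highest ratio for both, and the part of this in the classes was not tested. Of the 403 genes, 156 had another probe set over the floor, and in 150 of these (96.2%) the next brightest moved the same way, in 87 (55.8%) by at least 2-fold. The last genes counted as higher were Ccdc160, at 502 and 251, and Ifi202b, at 210 and 105 (4 h and 2.5 h), and the first left out were Gsta2, with a step of 0.99, and Epha7, with 0.99. Among lower genes, Cldn5 and Fabp3 stood exactly at 2-fold, and Fbxo34, at 1381 and 2754, and Dpyd, at 160 and 319, just missed it.

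The cells carried the markers of their label, and markers of other cell types were also over the floor. All 10 measured granulosa markers were over the floor, and their summed intensity was 66813 at 4 h and 76032 at 2.5 h. Their median step was -0.44, and 8 of the 10 were lower at 4 h, Fshr and Hsd17b1 by at least 2-fold. All 7 measured neutrophil markers stayed under the floor on both arrays, as did the endothelial markers Pecam1, Tie1, Vwf, Emcn and Robo4. The 17 measured oocyte markers summed to 14378 at 4 h and 13364 at 2.5 h, and the 15 over the floor had a median step of 0.09 and none past 2-fold. All 8 stromal fibroblast markers were over the floor and summed to 8440 at 4 h and 9641 at 2.5 h. Their median step was -0.26, with 7 of the 8 lower and none past 2-fold. The 9 macrophage and leukocyte markers had a median step of 0 and none past 2-fold. The 7 endothelial markers over the floor had a median of -0.44, and 1 of them, Cldn5, was 2-fold lower. The 7 measured theca markers summed to 11625 at 4 h and 14615 at 2.5 h, and among the 5 over the floor Hhip rose and Aldh1a1 fell. All 5 smooth muscle markers over the floor were lower, with a median of -0.21 and Rgs5 at 2-fold, and 7 of 8 surface epithelium markers were higher, with a median of 0.28 and none past 2-fold. In a whole population of cells, fewer cells of a type and less RNA per cell cannot be told apart.

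Setting the step against the early difference, 2.5 h minus 0 h, sorted the 403 genes into 6 classes. A late rise, with less than 2-fold between 2.5 h and 0 h, was seen for 120 genes. A continued rise on top of an early one was seen for 63 genes. A late fall with less than 2-fold before was seen for 174 genes, a continued fall for 16 and a decay after an early peak for 29. Tmem267 alone was higher at 4 h after an early fall, with intensities of 729 at 0 h, 304 at 2.5 h and 1618 at 4 h, and in knockout cells its step was also up, by 2.57-fold. The 2.5 h array enters both differences, so any error on it pushes them in opposite directions, and the early difference had a median of -0.21 over all genes.

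**Figure D1:**
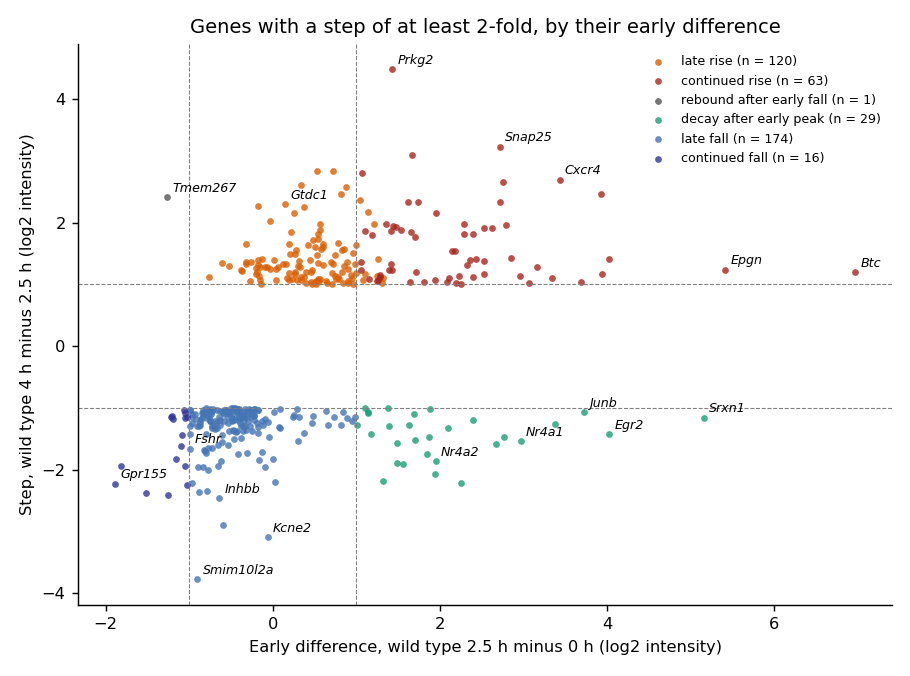
Each point is 1 of the 403 genes, placed by the log2 intensity difference of wild type 2.5 h minus 0 h (horizontal) and of wild type 4 h minus 2.5 h (vertical), and coloured by class. Dashed lines mark 2-fold. Prkg2 stands highest, Btc lies farthest to the right among genes still rising, and Smim10l2a lies lowest.

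Most of the early response neither doubled again nor was cut back within this interval. Of 407 genes that were at least 2-fold higher at 2.5 h than at 0 h, 315 stayed within 2-fold of their 2.5 h level at 4 h, 63 rose further and 29 fell. By any amount, 259 were above their 2.5 h level and 148 below it, with a median step of 0.30. Of 117 genes that were lower at 2.5 h than at 0 h, 16 fell further, and 89 were below their 2.5 h level by any amount, with a median step of -0.44.

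The 63 genes of the continued rise had a median step of 1.40, on top of a median early difference of 2.14. Prkg2, the kinase through which cGMP acts in several secretory and growth plate cells, had an intensity of 41 at 0 h, 110 at 2.5 h and 2449 at 4 h. Its 22.3-fold step was the largest of all genes over the floor, and 2 further probe sets over the floor each gave a step of at least 2-fold. On the knockout arrays Prkg2 read 41, 41 and 58, so all 3 lay below the floor. Snap25, which drives the fusion of secretory vesicles with the cell membrane, had 14, 92 and 862 in wild type cells at 0 h, 2.5 h and 4 h. That is a 9.37-fold step, against readings of 12, 12 and 16 in knockout cells at the same times. Cxcr4, the receptor of the chemokine CXCL12, had 27, 291 and 1883 in wild type cells, a 6.47-fold step. In knockout cells Cxcr4 had 21, 111 and 201, a step of 1.81-fold.

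Other genes of this class encode receptors, adhesion proteins and regulators. Sphk1, which makes the lipid messenger sphingosine-1-phosphate, had 51, 107 and 750 at 0 h, 2.5 h and 4 h, a 7.01-fold step. Msc, encoding the transcriptional repressor musculin, had 21, 142 and 892, a 6.28-fold step. Zfp804a, a zinc finger gene, had 22, 70 and 600. The leptin receptor Lepr had 27, 90 and 454, and the cell adhesion molecule Alcam had 77, 237 and 1193, with steps of 5.04-fold and 5.03-fold. All of these were brightest at 4 h. On the knockout arrays at 4 h and 2.5 h, Sphk1, Msc, Zfp804a and Lepr stayed under the floor, and Alcam had 172 and 102, a step of 1.69-fold.

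The late rise joined 120 genes whose level at 2.5 h was within 2-fold of that at 0 h, or was too dim at both times for a difference to be counted. Their median step was 1.28 and their median early difference 0.47, and 95 of them were already above 0 h by some amount. At 4 h, 110 were at least 2-fold above 0 h. Il1rl2, a receptor of the interleukin-1 family that binds interleukin-36, had 40 at 0 h, 66 at 2.5 h and 470 at 4 h, a 7.12-fold step. Abi3bp, a protein of the extracellular matrix, had 72, 132 and 790, and Tll1, a metalloprotease that cuts procollagens and BMP antagonists, had 33, 58 and 318. The step of Abi3bp was 5.99-fold. The epithelial barrier protein gene Sprr2f had 16, 23 and 164, the guanine nucleotide exchange factor Dock10 had 23, 29 and 177, and Esm1, a secreted proteoglycan, had 15, 31 and 160. For these 3 and for Tll1 the 2.5 h array was under the floor, as it was for 43 of the 184 higher genes.

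Gtdc1 and Osbpl3 were measured well over the floor at every time. Gtdc1, named for a glycosyltransferase-like domain, was nearly flat at first, with 444 at 0 h and 491 at 2.5 h, and then had 2416 at 4 h, a 4.92-fold step. Osbpl3, a lipid-binding protein of the oxysterol-binding family, had 155, 200 and 952, a 4.76-fold step. In knockout cells Gtdc1 had a step of 1.89-fold and Osbpl3 of 1.64-fold. Both steps had the direction seen in wild type cells, where the change was larger.

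**Figure D2:**
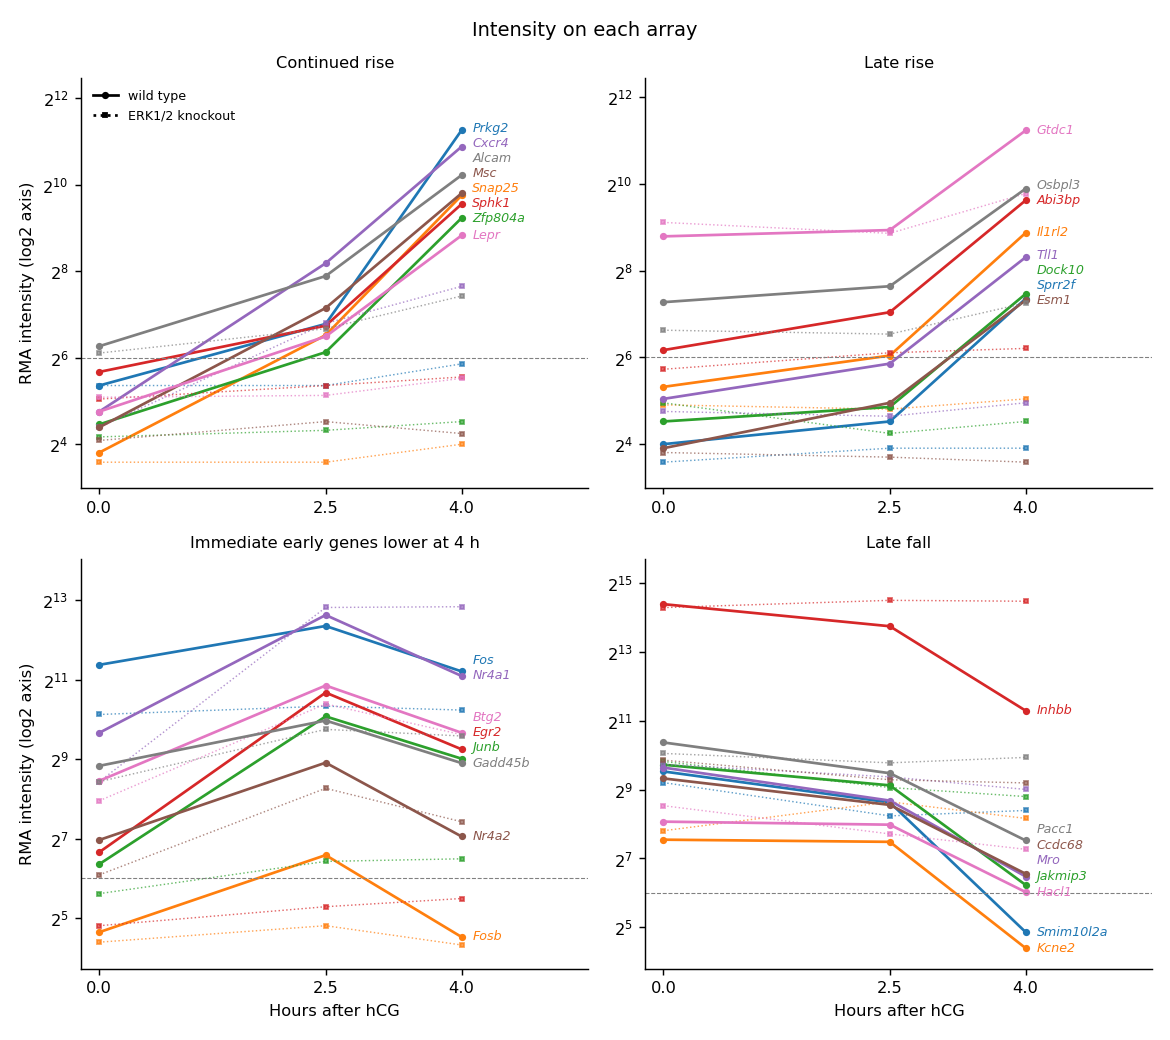
Intensity on each array at 0, 2.5 and 4 h after hCG, on a log2 axis, for the 8 genes with the largest step in the continued rise, the late rise and the late fall, and for the 8 immediate early genes that fell. Solid lines are wild type and dotted lines of the same colour are ERK1/2 knockout. The dashed line is the floor of 64, under which most knockout readings of the rising genes lie.

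The counts of the gene lists stand beside shares of 1.61% higher and 1.91% lower over all genes over the floor. The lists were chosen with earlier results of these data known, and some genes are on several lists. Their counts and medians are therefore fixed in part by that choice and only describe the members. The EGF-like ligands, which carry the hCG signal from mural to cumulus cells, did not move together. Of 8 on the list, 7 were measured, and Egf and Nrg1 stayed under the floor. Of the 5 over it, 2 rose and 1 fell. Betacellulin, Btc, had 46 at 0 h, 5768 at 2.5 h and 13217 at 4 h, a 2.29-fold step, and another of its probe sets gave a log2 step of 0.96. Epigen, Epgn, had 27, 1146 and 2697, a 2.35-fold step. Epiregulin, Ereg, had 35, 15945 and 15438 and so was level after its early rise, with a log2 step of -0.05. Hbegf ran the other way, with 746, 424 and 131, a 3.24-fold fall. In knockout cells Btc had 400 at 4 h and 256 at 2.5 h, and Epgn had 180 and 158, steps that did not reach 2-fold.

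Genes of cumulus expansion, the matrix that forms around the oocyte before ovulation, had a median step of 0.36 over 16 genes, of which 2 rose and none fell. Ptx3, a pentraxin that holds the hyaluronan matrix together, had 62, 1007 and 2680 at 0 h, 2.5 h and 4 h, a 2.66-fold step. The hyaluronan receptor Cd44 had 87, 399 and 808, a 2.03-fold step, which fell short of 2-fold when its probe sets were averaged, at 0.72 on the log2 scale. In knockout cells Cd44 had 269 at 4 h and 83 at 2.5 h, a 3.24-fold step. The prostaglandin synthase Ptgs2 had 11013 at 4 h and 8192 at 2.5 h, and the hyaluronan synthase Has2 had 509 and 324, both within 2-fold. The lowest step of the list was that of the prostaglandin E synthase Ptges, at 664 and 1137.

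Among 20 regulators of ovulation, 6 rose and 1 fell, with a median step of 0.49. Beside Prkg2, Snap25 and Cxcr4, the neuropeptide gene Adcyap1, which encodes PACAP, had 28, 147 and 518 at 0 h, 2.5 h and 4 h, a 3.52-fold step. The metal-binding protein gene Mt2 had 898, 1537 and 4885, a 3.18-fold step. Interleukin-6, Il6, had 13, 31 and 82, with only the 4 h array over the floor. The progesterone receptor Pgr had 25, 4476 and 7661 and the estrogen sulfotransferase Sult1e1 had 20, 10513 and 18464, steps of 1.71-fold and 1.76-fold that stayed under 2-fold.

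The 1 regulator that fell was Ptgfr, the receptor of prostaglandin F2alpha, with 276 at 0 h, 1872 at 2.5 h and 675 at 4 h, a 2.77-fold fall after a 6.78-fold rise. Of its 3 other probe sets over the floor, 2 fell by at least 2-fold. The same gene had 2394 at 4 h and 5126 at 2.5 h in knockout cells, a 2.14-fold fall from a higher level.

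The ERK pathway's own feedback genes were mostly higher at 4 h in wild type cells. Of 17 over the floor, 12 were above their 2.5 h level by any amount, 3 rose and none fell, with a median step of 0.48, against -0.02 in knockout cells. Each list median for knockout cells is over the members that reached the floor in both genotypes. Dusp4 and Dusp6 encode phosphatases that switch MAP kinases off. Dusp4 had 69 at 0 h, 397 at 2.5 h and 891 at 4 h, and Dusp6 had 94, 404 and 872. Etv5, an ETS transcription factor that responds to ERK signals in many tissues, had 23, 34 and 125, with only the 4 h array over the floor. In knockout cells Dusp4 had 38 at both 4 h and 2.5 h, and Dusp6 had 99 at 4 h and 186 at 2.5 h. Dusp1, a phosphatase gene of the immediate early kind, had the lowest step of the list, at 1276 and 1886 in wild type cells.

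Immediate early genes went the other way. They are transcribed without new protein synthesis, and many of their mRNAs are short-lived. Of 32 on the list, all over the floor, 8 fell and none rose, and 24 were below their 2.5 h level by any amount. The median step was -0.51, against 0 for all genes and 0.01 for the same list in knockout cells, where 1 fell by 2-fold. The promoters of 6 of the 8 are shown as examples of windows that hold motifs through which cyclic AMP and growth factor signals are known to reach such genes. They are RefSeq sequences of GRCm38.p6, 300 bases each, read 5′ to 3′ on the gene's strand from 250 bases before its start to 50 after. Of the 5 Egr2 windows, for different starts, the third is shown. Capitals mark TGACG, with which the cyclic AMP response element TGACGTCA begins, or its reverse complement CGTCA, with which it ends. They also mark the whole element where it occurs, and in Egr2 the CArG box, the site of serum response factor.
Fos, chr12:85473640-85473939, plus strand: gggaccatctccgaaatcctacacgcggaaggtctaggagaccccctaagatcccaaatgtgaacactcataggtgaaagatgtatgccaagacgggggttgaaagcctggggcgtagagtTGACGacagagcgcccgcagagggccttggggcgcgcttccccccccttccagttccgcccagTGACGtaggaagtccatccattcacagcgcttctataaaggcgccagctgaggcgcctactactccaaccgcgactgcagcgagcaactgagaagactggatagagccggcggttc
Junb, chr8:84978699-84978998, minus strand: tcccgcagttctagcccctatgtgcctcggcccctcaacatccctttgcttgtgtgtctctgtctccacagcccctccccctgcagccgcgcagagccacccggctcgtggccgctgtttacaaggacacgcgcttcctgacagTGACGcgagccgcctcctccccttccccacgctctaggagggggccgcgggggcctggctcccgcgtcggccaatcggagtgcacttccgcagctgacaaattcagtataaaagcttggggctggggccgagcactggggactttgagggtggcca
Egr2, chr10:67537619-67537918, plus strand: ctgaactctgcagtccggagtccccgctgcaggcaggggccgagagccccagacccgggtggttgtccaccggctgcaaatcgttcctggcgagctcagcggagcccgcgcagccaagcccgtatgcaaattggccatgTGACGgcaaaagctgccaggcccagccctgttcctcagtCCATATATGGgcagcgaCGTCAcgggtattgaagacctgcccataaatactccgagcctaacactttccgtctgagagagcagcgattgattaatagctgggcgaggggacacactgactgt
Nr4a1, chr15:101266596-101266895, plus strand: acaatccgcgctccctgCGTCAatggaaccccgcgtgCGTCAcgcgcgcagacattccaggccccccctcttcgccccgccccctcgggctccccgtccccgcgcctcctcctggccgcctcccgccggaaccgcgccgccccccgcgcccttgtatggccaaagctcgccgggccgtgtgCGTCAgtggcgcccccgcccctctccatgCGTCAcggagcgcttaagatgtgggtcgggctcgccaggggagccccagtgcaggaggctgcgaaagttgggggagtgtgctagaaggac
Nr4a2, chr2:57123954-57124253, minus strand: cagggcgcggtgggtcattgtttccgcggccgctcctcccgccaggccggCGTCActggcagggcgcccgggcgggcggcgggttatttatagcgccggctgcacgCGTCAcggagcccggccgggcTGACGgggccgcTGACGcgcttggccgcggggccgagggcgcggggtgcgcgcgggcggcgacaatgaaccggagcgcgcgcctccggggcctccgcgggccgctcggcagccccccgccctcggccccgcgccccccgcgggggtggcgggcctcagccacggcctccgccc
Btg2, chr1:134079106-134079405, minus strand: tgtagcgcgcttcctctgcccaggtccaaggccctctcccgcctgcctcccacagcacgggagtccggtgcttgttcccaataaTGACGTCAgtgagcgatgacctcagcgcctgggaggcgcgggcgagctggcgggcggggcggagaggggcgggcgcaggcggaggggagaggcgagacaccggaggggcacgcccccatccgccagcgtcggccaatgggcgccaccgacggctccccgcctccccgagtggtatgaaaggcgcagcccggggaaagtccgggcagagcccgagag

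The TGACG letters, on either strand, were found in the promoter window of 7 of the 8 immediate early genes that fell (87.5%), all but Gadd45b, and in 15 of 26 genes of the whole list with a promoter sequence (57.7%). Over all 9278 genes over the floor with a sequence, the share was 35.6%. A gene counted if any of its windows held the letters, and genes with more windows had more chances. The 8 genes had 12 windows, against 11869 for the 9278 genes. In Egr2 the first and second windows did not hold TGACG on either strand. The full element TGACGTCA, which holds TGACG on both strands, was found in 3.6% of all genes and in Btg2 among the 8. The CArG box was found in 1.6% of all genes and in Egr2 among the 8. In the 29 decaying genes, of which 27 had a sequence, the TGACG share was 48.1%. Among these 27, it was found in 6 of the 7 on the immediate early list and in 7 of the other 20, a share close to that of all genes. The share was, in the late rise, 29.0% of 93 and in the late fall 26.3% of 137. These are counts of letters in a window and do not show that a factor bound there. The list of immediate early genes was chosen with earlier results of these data known.

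Fos, a component of the AP-1 transcription factor, had 2660 at 0 h, 5241 at 2.5 h and 2372 at 4 h, so at 4 h it stood below its 0 h level. Its early rise of 1.97-fold stopped short of 2-fold, which put it in the late fall class. Fosb, a relative of Fos, had 25, 96 and 23, with only the 2.5 h array over the floor. Junb, their partner in AP-1, had 82, 1081 and 517, and the zinc finger factor Egr2 had 101, 1639 and 609. These last genes were still 6.30-fold and 6.03-fold above 0 h at 4 h. Egr1 had 5596 at 4 h and 9767 at 2.5 h, a 1.75-fold difference that did not reach the limit.

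Nr4a1 and Nr4a2, orphan nuclear receptors of the NR4A family, both fell in wild type cells. Nr4a1 had 812 at 0 h, 6344 at 2.5 h and 2192 at 4 h, a 2.89-fold fall, and Nr4a2 had 125, 482 and 133, a 3.62-fold fall that brought it back to its 0 h level. In knockout cells Nr4a1 was level, at 7336 at 4 h and 7241 at 2.5 h, while Nr4a2 had 172 and 308, 1.79-fold lower at 4 h. Nr4a3, the third member, was level in wild type cells, at 290 and 277. Btg2, an antiproliferative gene that also promotes mRNA deadenylation, had 351, 1854 and 813 in wild type cells. In knockout cells Btg2 had 787 at 4 h and 1344 at 2.5 h. Gadd45b, a stress-response gene, had 479 at 4 h and 1006 at 2.5 h in wild type cells, against 768 and 862 in knockout cells.

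The 29 genes of the decay class had a median step of -1.43, and at 4 h 21 of them were within 2-fold of their 0 h level while 8 were still at least 2-fold above it. Mmel1, a membrane metallopeptidase gene, had 40 at 0 h, 190 at 2.5 h and 41 at 4 h, with only the 2.5 h array over the floor. Both perilipins of the class, which coat lipid droplets, were within 2-fold of their 0 h level at 4 h. Plin5 had 114, 285 and 63, the last under the floor, and Plin4 had 86, 240 and 81. Yod1, a deubiquitinase gene, was the brightest of those named by rank, with 798, 2874 and 862, a 3.33-fold fall. In knockout cells Yod1 had 2928 at 4 h and 3588 at 2.5 h. Oasl2, an interferon-induced gene, had 123, 782 and 260, and remained 2.11-fold above 0 h. Mfsd4a, a transporter-like gene, had 121, 356 and 95.

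Tnfsf11, the cytokine RANKL, followed the same course in wild type cells at a low level. It had 78, 219 and 59 at 0 h, 2.5 h and 4 h, the last under the floor. In knockout cells Tnfsf11 had 735, 1874 and 2034, so it was brighter at every time and its step was 1.09-fold upward.

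The 174 genes of the late fall had a median step of -1.19 and a median early difference of -0.49, and 152 of them were already below 0 h at 2.5 h by some amount. At 4 h, 159 were at least 2-fold below 0 h. Inhbb, the beta-B subunit of activin B and inhibin B, had 21559 at 0 h, 13813 at 2.5 h and 2518 at 4 h. Its 5.49-fold fall was matched in direction by its other probe set, with a log2 step of -1.13. In knockout cells Inhbb had 22865 at 4 h and 23283 at 2.5 h and was level. Kcne2, a potassium channel subunit, had 187, 179 and 21 (the last under the floor) in wild type cells and so kept its level up to 2.5 h. Hacl1, an enzyme of fatty acid alpha-oxidation in peroxisomes, behaved alike, with 269, 253 and 65.

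The largest fall was that of Smim10l2a, named as a small membrane protein gene, with 740, 396 and 29, the last reading being under the floor. Jakmip3 had 847, 559 and 75, Mro had 800, 411 and 89, and Ccdc68 had 643, 377 and 94, with falls of 7.45-fold, 4.62-fold and 4.01-fold. Pacc1, a proton-activated chloride channel gene, had 1327, 714 and 184, a 3.88-fold fall. For 40 of the 219 lower genes the 4 h array was under the floor. On the knockout arrays the steps of the 8 genes of this class named by rank ran from a 1.40-fold fall for Kcne2 to 1.12-fold upward for Smim10l2a and Pacc1.

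Genes that mark the preovulatory granulosa cell were mostly lower at 4 h. Of 32 on the list, all over the floor, 8 fell and 1 rose, and 25 were below their 2.5 h level by any amount. The median step was -0.50 in wild type cells and 0 in knockout cells. Fshr, the receptor of follicle-stimulating hormone, had 4454 at 0 h, 2233 at 2.5 h and 708 at 4 h, a 3.15-fold fall. In knockout cells it had 3603 at 4 h and 4468 at 2.5 h. Nppc, the natriuretic peptide precursor that keeps the oocyte in meiotic arrest, had 539, 352 and 97, a 3.63-fold fall. Nppc had 217 at 4 h and 210 at 2.5 h in knockout cells.

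Inhbb and Hsd17b1 are also on this list and fell. The hedgehog ligand Ihh had 916, 591 and 244, and Dhh had 2133, 1604 and 702. The BMP receptor gene Bmpr1b had 6446, 3926 and 1945, and both of its further probe sets over the floor fell by at least 2-fold. The BMP antagonist Grem1 had 834, 692 and 339. The granulosa transcription factors Foxl2, at 1454 and 2518 (4 h and 2.5 h), and Gata4, at 361 and 672, were lower without reaching 2-fold. The WNT receptor Fzd1 was the 1 member that rose, with 267, 610 and 2113, a 3.46-fold step.

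Of 15 steroidogenesis genes over the floor, 2 fell and none rose, with a median step of -0.22. Hsd17b1, which reduces estrone to estradiol, had 13111 at 0 h, 9121 at 2.5 h and 3530 at 4 h, a 2.58-fold fall. In knockout cells it had 17381 at 4 h and 18764 at 2.5 h. Nr0b1, which encodes the repressor DAX1, had 485, 245 and 120 in wild type cells. The cholesterol carrier Star, at 16259 and 14678 (4 h and 2.5 h), and the side-chain cleavage enzyme Cyp11a1, at 13351 and 11901, moved little. The 18 genes of cholesterol synthesis and uptake had a median step of -0.08, with none past 2-fold.

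The 16 genes of the continued fall had a median step of -1.52. Gpr155, a multipass membrane protein gene, had 915, 248 and 53 at 0 h, 2.5 h and 4 h, with the 4 h array under the floor. Alms1, a gene of the centrosome and ciliary base, had 626, 219 and 42, the last also under the floor. Rassf4 had 985, 474 and 124 and Tom1l1 had 1382, 620 and 175, while in knockout cells their steps were falls of 1.07-fold and 1.08-fold. The E3 ubiquitin ligase gene Rnf144b had 1222, 571 and 187, and Cxxc4, an inhibitor of WNT signalling, had 362, 158 and 70. Clec1a, a C-type lectin receptor, had 492, 242 and 51, the last under the floor. Ccbe1, a secreted protein needed for lymphatic growth, had 2705, 1274 and 470. These last 2 also fell in knockout cells. There Clec1a had 53 at 4 h, under the floor, and 148 at 2.5 h, and Ccbe1 fell by 2.75-fold.

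**Figure D3:**
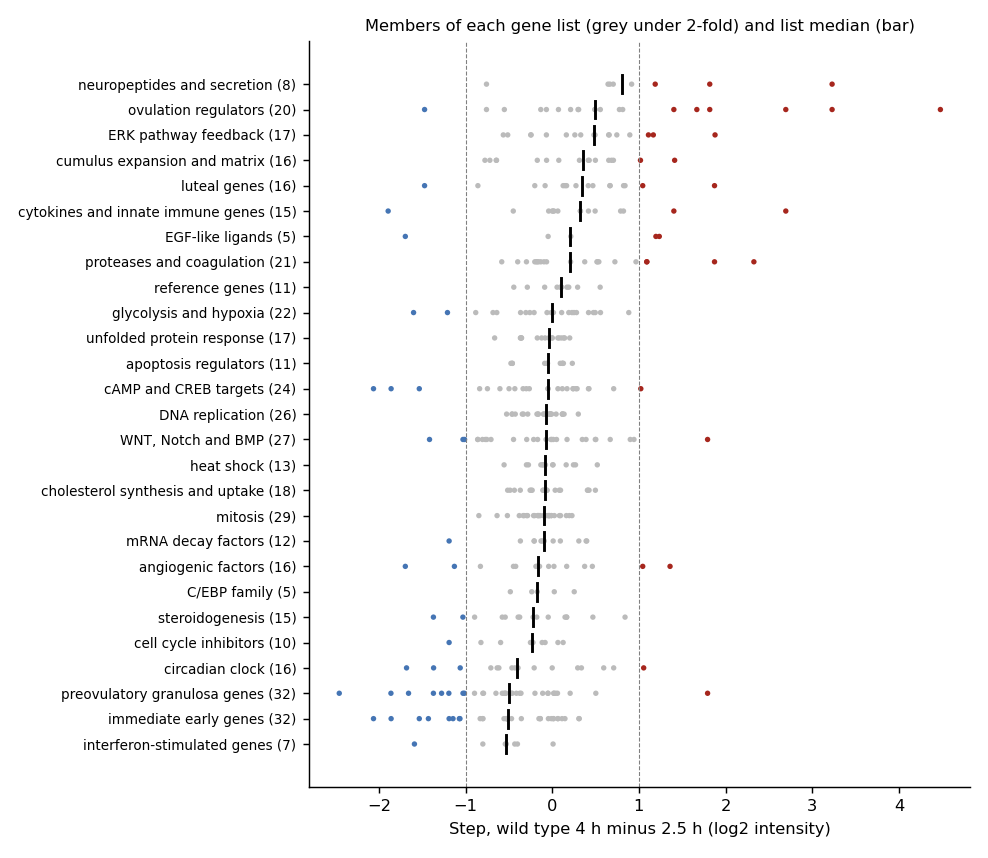
Step of each gene over the floor in 27 gene lists, as the log2 intensity difference of wild type 4 h minus 2.5 h, with lists ordered by their median (black bar) and the number of genes in brackets. Red and blue points are past 2-fold. Neuropeptides and ovulation regulators stand at the top with medians of 0.81 and 0.49, and immediate early and preovulatory granulosa genes near the bottom with -0.51 and -0.50. The order depends in part on how the lists were chosen, which was with earlier results of these data known.

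Genes that mark luteal cells had a median step of 0.34 over 16 genes, of which 2 rose and 1, Ptgfr, fell. Timp1, an inhibitor of metalloproteases, had 479, 1392 and 5095 at 0 h, 2.5 h and 4 h, a 3.66-fold step, against 401 at 4 h and 346 at 2.5 h in knockout cells. Efnb2, a ligand of Eph receptors, had 219, 926 and 1910 in wild type cells, and its 2 further probe sets over the floor did not reach 2-fold. Of 21 genes of proteases and coagulation, 4 rose and none fell, with a median step of 0.21. Serpinb2, an inhibitor of plasminogen activators, had 12, 79 and 396, a 5.01-fold step. Adam8, a membrane metalloprotease, had 151, 335 and 713. Tfpi2, an inhibitor of serine proteases, had 36, 61 and 130 and was over the floor only at 4 h.

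Of 8 neuropeptide and secretion genes over the floor, 3 rose and none fell, and the median step of 0.81 was the highest of the 27 lists. Beside Snap25 and Adcyap1, the secretogranin gene Scg2 had 22, 36 and 82 at 0 h, 2.5 h and 4 h. Neurotensin, Nts, had 26, 6710 and 10934 and neuromedin U, Nmu, had 39, 2179 and 3455, steps of 1.63-fold and 1.59-fold after far larger early rises. Neuropeptide Y, Npy, had 46, 555 and 1047, just under 2-fold. On the knockout arrays Nts was the 1 member of the list over the floor, with 160 at 4 h and 66 at 2.5 h.

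Signals to vessels and to immune cells were mixed. Of 16 angiogenic factors 2 rose and 2 fell, with a median step of -0.16: Vegfc, a growth factor of lymphatic vessels, had 74, 154 and 395, while the vasoconstrictor gene Edn1 had 194, 271 and 124. Of 15 cytokines and innate immune genes 2 rose and 1 fell, with a median step of 0.32. Among 27 WNT, Notch and BMP genes, 1 rose and 3 fell, with a median step of -0.07. The secreted WNT antagonist Frzb had 602, 304 and 114, and Id3, a BMP-responsive inhibitor of bHLH factors, had 3631, 3095 and 1536.

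Of 24 cyclic AMP and CREB targets 1 rose and 3 fell, with a median step of -0.05, close to the 0 of all genes, and the 3 that fell were Fosb, Nr4a1 and Nr4a2 from the immediate early list. Pde4b, a phosphodiesterase that breaks down cyclic AMP, had 58, 485 and 985, a 2.03-fold step. Crem, which gives rise to the cyclic AMP repressor ICER, had 2316 at 4 h and 3886 at 2.5 h in wild type cells, and 1088 and 3940 in knockout cells, where the fall was 3.62-fold.

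Of 16 clock-linked genes over the floor in wild type cells, 3 fell and 1 rose, and in knockout cells 2 fell and none rose. The median step was -0.41 in wild type and -0.41 in knockout cells, over members that are not all the same. Dbp, a PAR bZIP factor driven by the clock, had 83 at 4 h and 266 at 2.5 h in wild type cells, and 141 and 225 in knockout cells. Nr1d2, a nuclear receptor of the clock's feedback loop, had 537 and 1386 in wild type cells, and 1054 and 2222 in knockout cells. Nfil3, a repressor that opposes Dbp, had 586 and 282 in wild type cells, and 208 and 202 in knockout cells. The labels gave no time of day, so hours after hCG and time of day cannot be told apart.

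Glycolysis and hypoxia genes had a median step of 0 in wild type cells and -0.38 in knockout cells, and 2 of 22 fell in wild type cells. Bnip3, a mitophagy receptor induced by low oxygen, had 757 at 4 h and 2293 at 2.5 h in wild type cells, and 1412 and 3494 in knockout cells. Aldoc, a glycolytic aldolase, had 116 and 268 in wild type cells. Other lists on which no gene reached 2-fold in wild type cells were mitosis, with a median step of -0.10 over 29 genes, DNA replication (-0.07 over 26), apoptosis regulators (-0.05 over 11), the unfolded protein response (-0.04 over 17), heat shock (-0.08 over 13) and the C/EBP family (-0.17 over 5). In each of 3 further lists 1 gene fell: Btg2 among cell cycle inhibitors and mRNA decay factors, and Oasl2 among 7 interferon-stimulated genes, whose median step was -0.53.

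The same interval held fewer 2-fold differences in knockout cells. There 52 of 11261 genes were higher at 4 h (0.462%) and 60 were lower (0.533%), against 1.61% and 1.91% in wild type cells. Of the 184 genes higher in wild type cells, 13 were also higher in knockout cells, which is 7.07% of the wild type genes and 25% of the 52 knockout genes. Of the 219 lower in wild type cells, 20 were also lower in knockout cells, which is 9.13% of the wild type genes and 33.3% of the 60. The shared higher genes included Cd44, the protein kinase C gene Prkca and the alcohol dehydrogenase gene Adh7. The shared lower genes included Ptgfr, Bnip3, Frzb, Nr1d2, Clec1a, Ccbe1 and the kinase gene Plk2. Not all genes with a step in wild type cells were bright enough in knockout cells to be compared there: 76 of 120 in the late rise, 44 of 63 in the continued rise, 18 of 29 in the decay class and 171 of 174 in the late fall reached the floor. Over these, the knockout step had a median of 0.34 in the late rise, 0.37 in the continued rise, -0.35 in the decay class and -0.27 in the late fall. The classes were chosen by their wild type step, so a smaller median in the other genotype is fixed in part by that choice. The 2 steps share no array, and the difference between them has no replicate and was not tested.

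**Figure D4:**
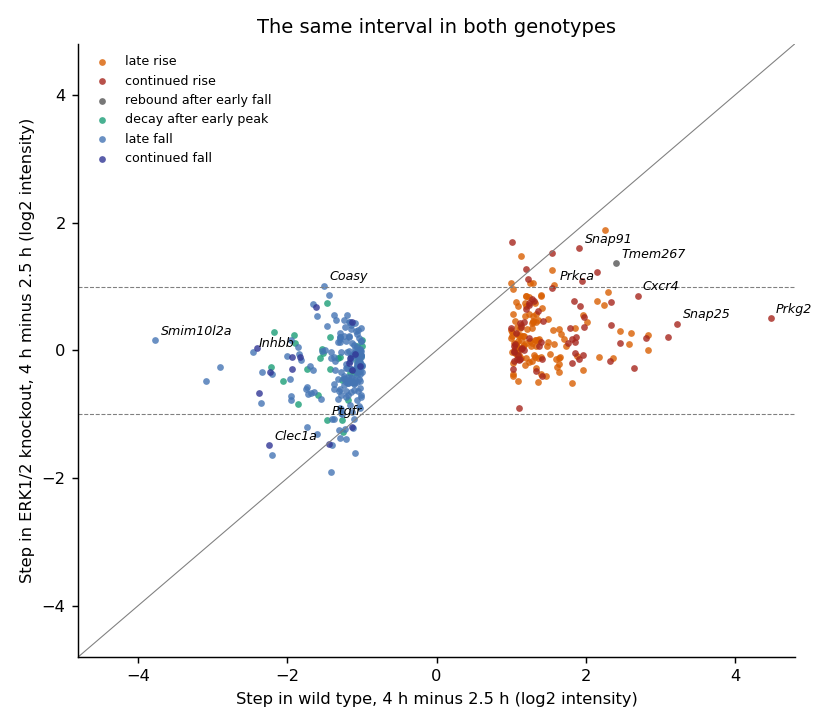
Each point is 1 of the 403 genes, placed by its log2 intensity difference of 4 h minus 2.5 h in wild type (horizontal) and in ERK1/2 knockout cells (vertical), and coloured by class. The diagonal marks equal steps and the dashed lines 2-fold in knockout cells. Most points lie between the dashed lines. Of genes over the floor in knockout cells, 13 lie above and 20 below them in the wild type direction, and Coasy lies past them the other way. Genes under the floor in knockout cells are drawn too, and some of these, such as Brinp3 and Tmem71, also lie past the lines.

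The genes with a late step were longer in the genome than the genes measured. RefSeq gene spans in GRCm38.p6 had a median of 23.9 kb over all genes over the floor, and 13.2% reached 100 kb. Among genes higher at 4 h the median was 45.7 kb and 32.2% reached 100 kb, and among genes lower at 4 h the median was 30.6 kb and 25.1% reached it. The late rise class had a median of 55.1 kb, with 36.7% at 100 kb or more, while the decay class had a median of 15.3 kb and 1 gene of 29 at that length. Genes already higher at 2.5 h than at 0 h were close to all genes in length, with a median of 20.8 kb and 15.3% at 100 kb or more. In knockout cells, 51.9% of the 52 higher genes and 36.7% of the 60 lower genes reached 100 kb.

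By length, the share of genes higher at 4 h than at 2.5 h was 1.30% under 10 kb, 0.96% from 10 to 30 kb, 1.53% from 30 to 100 kb, 3.27% from 100 to 300 kb and 7.03% at 300 kb or more. The share that was lower ran 2.04%, 1.34%, 1.68%, 3.27% and 5.47% over the same bins. The median step was 0.006 from 30 to 100 kb and -0.156 at 300 kb or more, so the longest genes did not rise as a whole. The share higher at 2.5 h than at 0 h ran 4.26%, 3.10%, 3.16%, 3.98% and 4.69%. These shares are descriptions over genes, which are not independent replicates. Under 2 settings chosen after the data were seen, 35.4% of higher and 27.1% of lower genes reached 100 kb with a floor 4 times higher, against 12.7% of all genes, and 25.8% and 19.3% did when probe sets were averaged, against 11.7%.

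**Figure D5:**
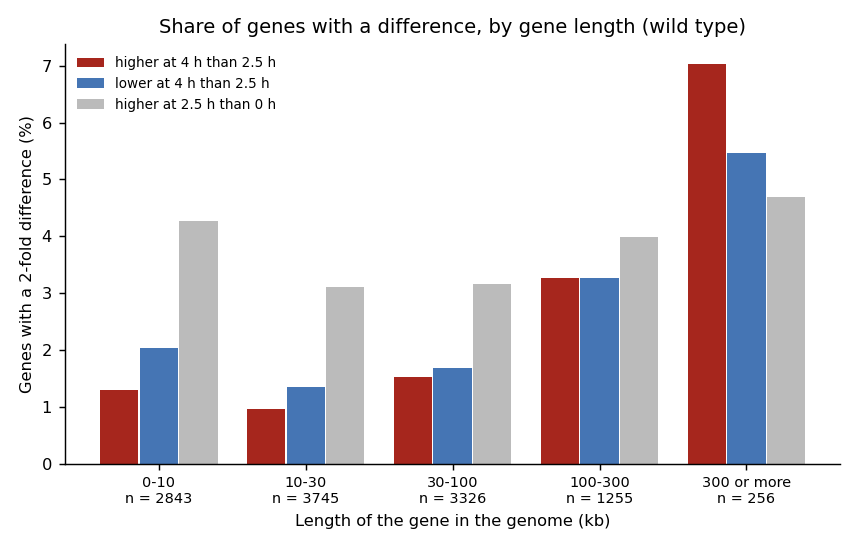
Share of genes over the floor that were at least 2-fold higher (red) or lower (blue) at 4 h than at 2.5 h, and at least 2-fold higher at 2.5 h than at 0 h (grey), in wild type cells, by the length of the gene in the genome. Bars start at 0 and n is the number of genes over the floor in the step. Red and blue bars are tallest in the 2 longest bins, and the grey bars range from 3.10% to 4.69%.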

How the data were processed

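RNA from ovarian granulosa cells was measured on 6 Affymetrix arrays, from biotin-labelled cRNA made of 5 ug of total RNA, per the labels' protocols. The authors made the intensities with RMA in the affy package, per the submitters' processing notes. Versions are not given in the sources used here. Intensities as deposited ran from 9 to 59425, linear and rounded to whole numbers, so log2 was taken before differences were computed. RMA includes quantile normalization, which hides any overall change in RNA content. Rounding leaves dim probe sets with coarse steps, and signal over background sets the precision.

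Of 45101 probe sets, 34958 named 1 gene in the platform annotation, 932 several and 9211 none, and 34754 were found by gene ID in the mouse RefSeq table of GRCm38.p6. Each of 18194 genes was read from its brightest probe set by mean log2. A gene entered a comparison where the brighter of the arrays compared reached 64, and was counted from 2-fold. Named by rank were the 8 genes with the largest step in each class among those reaching 128 on the brighter array, whose next brightest probe set, where over 64, moved the same way, clone names left out. Members of the 38 lists (27 pathway lists and 11 cell type lists) could also be named. The members and lists were chosen with earlier results of these data known. Promoters were the RefSeq windows described, and 9278 genes over the floor had one. The alternatives took the mean of all probe sets, cyclic loess (limma 3.58.1 in R 4.3.3), centring, other floors, a pseudocount of 32 and an early limit of 1.5-fold. Other steps used Python 3.11.15 with numpy 2.4.6 and pandas 2.3.3. Simulated data had steps planted at 4 h only, so of the classes they tried only the late rise and the late fall. They give no error rate for the real arrays. Probe sets of the targeted kinases were not analysed here.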

Additional observations from a re-analysis of the deposited data

Results flagged for a closer look

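Coasy, which encodes the enzyme of the last steps of coenzyme A synthesis, was the 1 gene that passed 2-fold in opposite directions in the 2 genotypes. In wild type cells it had 326 at 4 h and 928 at 2.5 h, a log2 step of -1.51. In knockout cells it had 3520 at 4 h and 1743 at 2.5 h, a log2 step of 1.01. Another probe set of the gene also fell in wild type cells, with a step of -1.08. The step of that probe set in knockout cells is not given here, so the knockout rise rests on 1 probe set. With 1 array for each genotype and time, the difference between the genotypes was not tested.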

How the results depend on the processing

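The count of genes higher at 4 h ranged from 133 to 187 over the alternatives, and stayed within 1.5 times the 184 reported. Averaging the probe sets of a gene gave 145 lower genes and a pseudocount of 32 gave 135, against 219, and the split of higher to lower was then 133 to 145 and 135 to 135. The late fall class held 103 genes with the pseudocount and 95 with an early limit of 1.5-fold, against 174, and under that limit the late rise, with 97, was the larger class. The continued fall, with 16 genes, held 5 after averaging probe sets, 7 after cyclic loess, 5 after centring and 87 with the early limit of 1.5-fold, and the rebound class held 3 under that limit. Centring moves the early difference, whose median was -0.21. In the other cases the cause was not tested. Requiring both arrays over 64, chosen after the data were seen, left 141 higher and 179 lower genes.

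Of the 90 named or listed genes that passed 2-fold, none changed direction under the alternatives run for it, and genes under 2-fold were not recomputed. After averaging or with the higher floor, 85 had a value. Of the 90, 88 still passed after cyclic loess (Cldn5 and Rgs5 did not), 76 did with the pseudocount, and 72 of 85 did after averaging probe sets. Among the 13 that then missed it were Cd44, at 0.72, Nr4a2, at -0.96, Ptgfr, at -0.98, Ptx3, at 0.81, Pde4b, at 0.43, and Efnb2, at 0.56. All 37 list medians moved by less than 0.30. No paired analysis was possible because the labels give 1 array for each genotype and time.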

Other observations

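The genes in this section were chosen after their values were seen, stand as single values and were not counted as groups. Tac1, the precursor of substance P, had 653 at 0 h, 3756 at 2.5 h and 9712 at 4 h, and in knockout cells it had 610, 508 and 534. The glucagon precursor gene Gcg had 16, 78 and 274 in wild type cells. Interleukin-7, Il7, had 93, 491 and 1062, and the oncostatin M receptor Osmr had 40, 126 and 454. The axon guidance gene Slit2 had 171, 178 and 433, and the Eph receptor Epha5 had 205, 182 and 481, both late rises. The adhesion molecule Nrcam continued an early rise, with 65, 286 and 836, and in knockout cells it had 36, 73 and 210.

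Aldh1a1, which makes retinoic acid from retinal, had 8155, 5458 and 2369 in wild type cells at 0 h, 2.5 h and 4 h, and its relative Aldh1a7 had 965, 777 and 234. Adh7, an alcohol dehydrogenase that oxidizes retinol, had 49, 190 and 844. In knockout cells Aldh1a1 had 8950, 9852 and 9671, and Adh7 had 40, 48 and 112. The calcium channel gene Cacna1d had 182, 110 and 35, the potassium channel genes Kcnq5 and Kcnk1 had 597, 427 and 184 and 1602, 954 and 471, and the chloride channel gene Ano1 had 2106, 1578 and 770.

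Pcsk5, a proprotein convertase, had 9370 at 4 h and 3991 at 2.5 h in wild type cells, and 6816 and 3136 in knockout cells. Bmper, a BMP-binding secreted protein, had 6765 and 2952 in wild type cells, and 3903 and 1614 in knockout cells. Snap91, a protein of clathrin-coated vesicles, had 1557 and 413 in wild type cells, and 310 and 102 in knockout cells. Plk2 had 199, 2069 and 866 in wild type cells at 0 h, 2.5 h and 4 h, and 118, 838 and 344 in knockout cells. In both it was lower at 4 h than at 2.5 h but still above 0 h, by 4.35-fold in wild type cells. Its other probe set over the floor had a log2 step of only -0.3 in wild type cells. Of 2732 probe sets over the floor with no gene in the annotation used, 53 were at least 2-fold higher at 4 h than at 2.5 h in wild type cells and 21 were lower. Over all genes the shares were 1.61% higher and 1.91% lower. Those shares count genes, each read from its brightest probe set, while these counts are of single probe sets.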
